A study of Mus musculus with 23 samples.

Results

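The 7 genes described here encode opioid peptide precursors and opioid receptors of the mouse. Pomc, the precursor of beta-endorphin, is not among them and is described with the rest of the pathway. The 7 are Penk, Pdyn and Pnoc among the precursors and Oprm1, Oprd1, Oprk1 and Oprl1 among the receptors. They were chosen by gene symbol from the 19733 genes of a hippocampal FPKM table, and all 7 were found. FPKM count the fragments of a gene for each kilobase of its transcript, relative to all fragments of the library. Levels of different genes can thus be set side by side within a library, as far as the transcript lengths used hold. The table holds 23 wild-type male C57BL/6J mice: 9 Ctrl mice on a control liquid diet, 7 EtOH mice on an alcohol liquid diet and 7 EtOH-UA mice on the alcohol diet with urolithin A (UA), a gut microbial product of dietary ellagitannins. The mice were 6 weeks old at the start, the diets ran for 16 weeks, and 1 week of behavioral tests followed. UA was given by gavage at 200 mg/kg/day in 0.05% sodium carboxymethyl cellulose, and the other groups received this vehicle. The tissue is bulk hippocampus, so fewer cells of a type and less RNA per cell cannot be told apart.

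Opioid precursors are cut by proprotein convertases and trimmed by carboxypeptidases into short peptides that neurons release from dense-core vesicles. Penk yields enkephalins, which act mainly on the delta receptor (Oprd1) and the mu receptor (Oprm1), Pdyn yields dynorphins, which prefer the kappa receptor (Oprk1), and Pnoc yields nociceptin, the ligand of the nociceptin receptor (Oprl1). All 4 receptors couple to inhibitory G proteins, which lower cyclic AMP, open inwardly rectifying potassium channels and close presynaptic calcium channels. In the hippocampus, dynorphin is best known from dentate granule cells and their mossy fibers, enkephalin from the perforant path, granule cells and some interneurons, and mu and delta receptors from interneurons.

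The coding sequences show what sets the precursors apart. The classical opioid peptides begin with codons for tyrosine, glycine, glycine and phenylalanine, followed by methionine or leucine. In the GENCODE M21 coding sequences (GRCm38), Penk carried 7 such stretches in frame, 6 followed by methionine and 1 by leucine. Pdyn carried 3, all followed by leucine, and Pnoc carried 1 that begins with phenylalanine in place of tyrosine and is followed by threonine. The stretches are shown because they define the family. The 4 core codons are in capitals and the codon after them is in lower case, on the coding strand, with positions counted from 1 at the A of the start codon.
Penk, coding bases 298 to 312: TACGGAGGCTTCatg
Penk, coding bases 691 to 705: TATGGGGGCTTCctg
Pdyn, coding bases 496 to 510: TATGGCGGCTTTttg
Pdyn, coding bases 604 to 618: TATGGGGGCTTCctg
Pdyn, coding bases 661 to 675: TATGGTGGTTTCctg
Pnoc, coding bases 421 to 435: TTTGGGGGCTTCacc
The sixth Penk stretch and the second Pdyn stretch hold the same letters. Over their coding sequences, the receptors were between 66.7% (Oprk1 with Oprl1) and 71.6% (Oprd1 with Oprk1) identical in aligned bases, and Oprl1 had 67.7% with Oprm1 and 68.4% with Oprd1.

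Penk and Oprl1 were the most abundant transcripts of the family in this hippocampal tissue, and Oprk1 and Oprm1 were the least abundant. Mean FPKM over the 23 mice were 20.9 for Penk, 15.1 for Oprl1, 5.12 for Pdyn, 4.14 for Pnoc, 3.19 for Oprd1, 0.403 for Oprk1 and 0.336 for Oprm1. None of them was at 0 in any mouse. Neighbors in this order were compared within mice by a two-sided sign-flip permutation test on the log2(FPKM + 0.1) scale, adjusted over the 6 neighbor pairs. The test takes in only the spread between mice. An error in the transcript length of a gene is shared by all mice and is not covered by these p-values. Annotated transcripts ran from 0.369 to 2.39 kb for Pdyn and from 0.640 to 3.10 kb for Oprl1. Penk was above Oprl1 in 21 of 23 mice (adjusted permutation p = 2.00e-05, from the smallest p that 100000 permutations can give), and Oprl1 was above Pdyn in all 23 (adjusted permutation p = 2.00e-05). Pdyn exceeded Pnoc in 18 mice (adjusted permutation p = 0.0181), Pnoc exceeded Oprd1 in 19 (adjusted permutation p = 4.50e-04), and Oprd1 exceeded Oprk1 in all 23 (adjusted permutation p = 2.00e-05). The least abundant receptors were not cleanly ordered. Oprk1 was above Oprm1 in 14 of 23 mice, with an adjusted permutation p of 0.0325 on the log2 scale and 0.130 on the FPKM scale.

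Low values rest on few fragments. The steps between the lowest FPKM values of 33 genes gave the worth of 1 FPKM, which was 16.9 fragments for each kilobase at the median (quartiles 16.2 and 17.1). On the longest annotated transcript of each gene this gives about 794 fragments for Oprl1, 514 for Penk, 217 for Oprd1, 207 for Pdyn, 151 for Pnoc, 31.9 for Oprk1 and 13.8 for Oprm1 in an average library. Counting error alone is then near 27.0% of the level for Oprm1 and 17.7% for Oprk1, against 3.55% for Oprl1. The within-group SD on the log2 scale followed the same order at its ends. It was 0.77 for Oprm1, higher than in 97.5% of the genes tested, and 0.14 for Oprl1, higher than in 27.8%, where the median gene had 0.19. Oprk1 had 0.43, Penk 0.38, Pdyn 0.36, Pnoc 0.34 and Oprd1 0.29.

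Penk (Entrez gene 18619, GRCm38 chromosome 4, 4133536 to 4138815, minus strand) encodes proenkephalin. The Ctrl mice lay between 15.98 and 33.42 FPKM with a median of 21.1, the EtOH mice between 12.44 and 27.49 with a median of 20.47, and the EtOH-UA mice between 12.34 and 32.81 with a median of 17.37. The groups overlapped, and 6 of the 7 EtOH-UA mice lay at or below 18.73 FPKM. Of the exon bases of Penk, 14.3% also lie in exons of A830012C17Rik on the opposite strand, and reads there cannot be assigned if the library did not keep strand, which is not given in the sources used here.

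Pdyn (18610, chromosome 2, 129686549 to 129699938, minus strand) encodes prodynorphin. The Ctrl mice spanned 2.21 to 5.59 FPKM (median 4.93), the EtOH mice 4.28 to 6.06 (median 5.14) and the EtOH-UA mice 3.64 to 9.39 (median 5.84). The lowest value of all belonged to a Ctrl mouse and the highest to an EtOH-UA mouse, and 4 EtOH-UA mice (5.84, 5.96, 6.8 and 9.39 FPKM) were above every Ctrl mouse. Pnoc (18155, chromosome 14, 65400673 to 65425564, minus strand) encodes prepronociceptin. Its lowest, median and highest values were 2.16, 3.79 and 5.99 FPKM among the Ctrl mice, 2.88, 3.85 and 5.4 among the EtOH mice and 3.46, 4.63 and 5.94 among the EtOH-UA mice, and the groups lay on top of each other.

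Oprl1 (18389, chromosome 2, 181715000 to 181720985, plus strand), the nociceptin receptor gene, was the steadiest of the family. The Ctrl mice held 13.83 to 18.57 FPKM (median 15.66), the EtOH mice 12.58 to 15.72 (median 15.33) and the EtOH-UA mice 12.65 to 17.04 (median 13.57). The EtOH mice other than the one at 12.58 sat close together between 15.18 and 15.72 FPKM. Oprd1 (18386, chromosome 4, 132110188 to 132144486, minus strand), the delta receptor gene, had 2.09 to 4.26 FPKM in Ctrl mice (median 3.16), 2.63 to 3.82 in EtOH mice (median 3.13) and 1.7 to 3.71 in EtOH-UA mice (median 3.21), with nearly equal medians.

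Oprk1 (18387, chromosome 1, 5588450 to 5606134, plus strand), the kappa receptor gene, had 0.22 to 0.83 FPKM in Ctrl mice (median 0.37), 0.22 to 0.71 in EtOH mice (median 0.46) and 0.17 to 0.51 in EtOH-UA mice (median 0.34). Oprm1 (18390, chromosome 10, 6758593 to 7038209, plus strand), the mu receptor gene, had 0.06 to 0.67 FPKM in Ctrl mice (median 0.28), 0.13 to 0.67 in EtOH mice (median 0.48) and 0.03 to 0.78 in EtOH-UA mice (median 0.25). Of the exon bases of Oprm1, 1.19% overlap Ipcef1 on the opposite strand. Oprm1 spanned 26.0-fold from the lowest to the highest mouse, whereas Oprl1 spanned 1.48-fold.

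**Figure D1:**
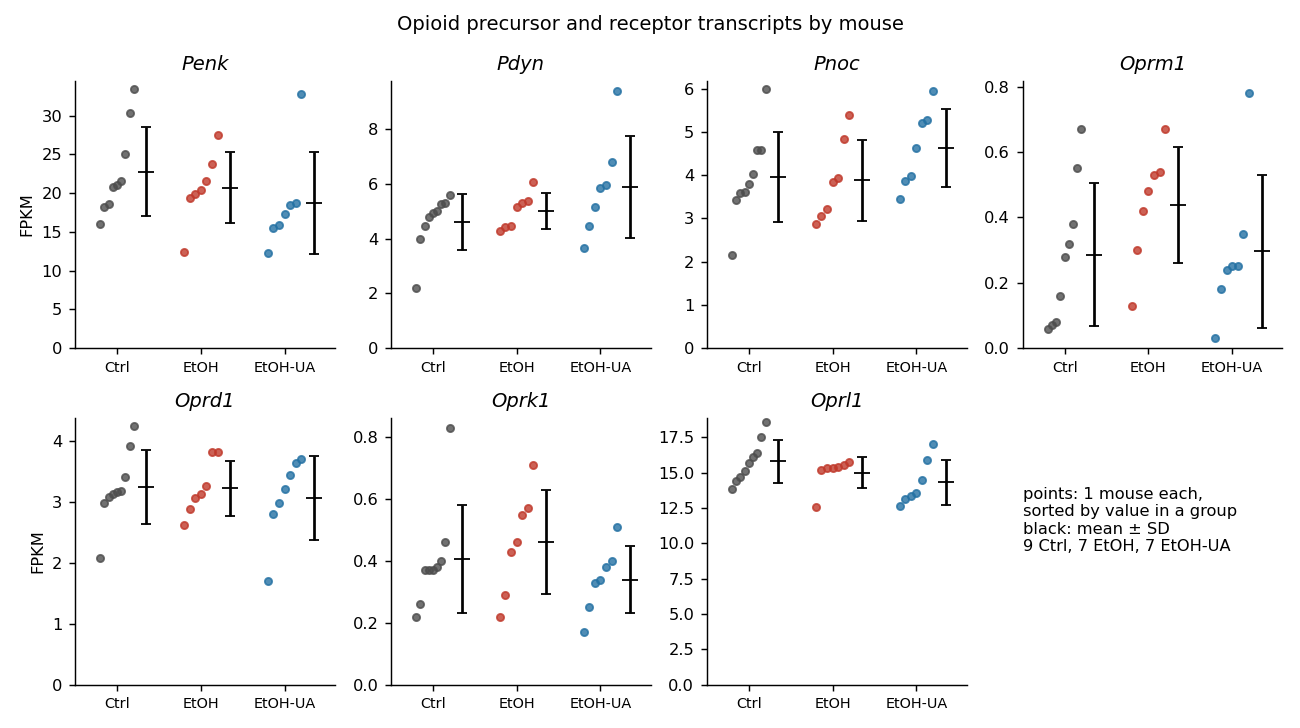
FPKM (vertical axis, from 0) of the 7 genes in each mouse, by group, with 1 point a mouse and the mean and SD in black. The groups overlap for every gene, Penk and Oprl1 are the highest, and Oprk1 and Oprm1 stay below 1 FPKM in all mice.

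The precursor sum used here is that of Penk, Pdyn and Pnoc and leaves out Pomc. Within these precursors Penk held the largest share, and within the receptors Oprl1 did. Penk made up 45.8% to 83.1% of the summed precursor FPKM (median 68.5%), and Oprl1 made up 74.4% to 86.9% of the summed receptor FPKM (median 79.0%). The receptor share was thus narrow and the precursor share wide. The ratio of Penk to Pdyn ran from 1.31 in an EtOH-UA mouse to 15.1 in a Ctrl mouse. The Penk share of the Ctrl mice averaged 71.9% ± 5.29 (SD, n = 9), that of the EtOH mice 69.5% ± 4.61 (SD, n = 7) and that of the EtOH-UA mice 63.0% ± 9.25 (SD, n = 7). For EtOH-UA against Ctrl mice the difference of -8.96 percentage points had a two-sided exact permutation p of 0.0189, and 0.227 after adjustment over the 12 tests of 4 such ratios in 3 comparisons. None of the 12 tests passed after adjustment.

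**Figure D2:**
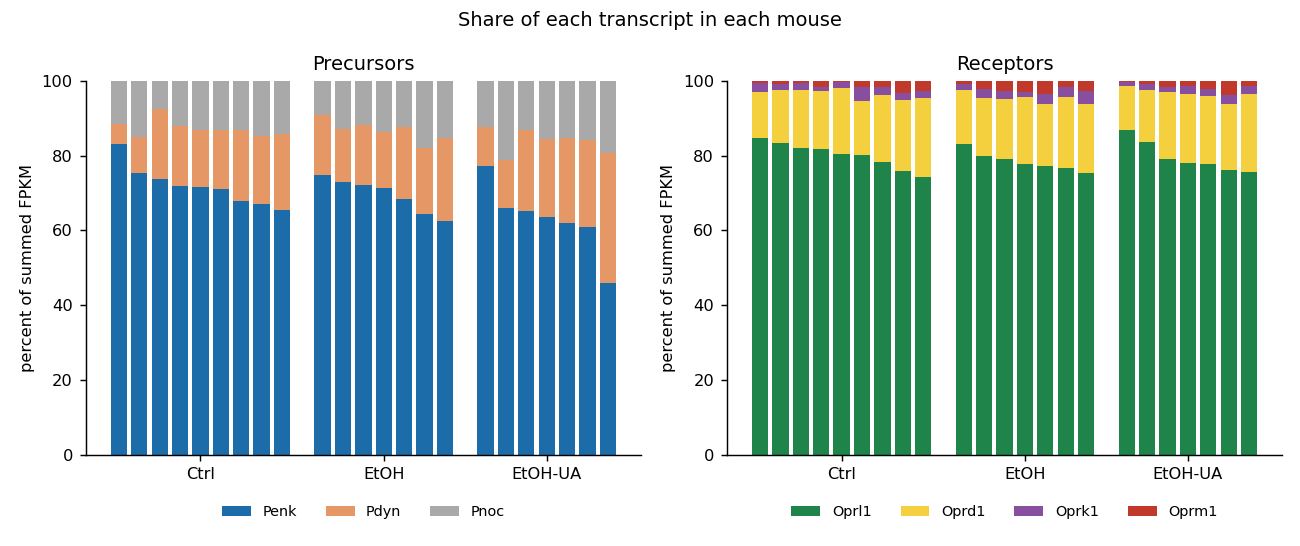
Percent of the summed FPKM of the 3 precursors (left) and the 4 receptors (right) in each mouse, 1 bar a mouse, sorted within groups by the share of Penk or Oprl1. Oprl1 holds 74.4% to 86.9% of the receptor sum, and the Penk share reaches down to 45.8% in an EtOH-UA mouse.

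The EtOH and Ctrl groups were compared to ask what the alcohol diet does, the EtOH-UA and EtOH groups to ask what UA does on that diet, and the EtOH-UA and Ctrl groups to place the treated mice. These comparisons share mice, so they are not independent. Differences are on the log2(FPKM + 0.1) scale from 1 limma fit of the 3 groups over 15985 genes, which understates the change of low genes. The Benjamini-Hochberg adjusted p in limma was at least 0.900 for all 7 genes in every comparison, and the groups overlapped in each case.

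In EtOH against Ctrl mice, 0 of the 7 genes passed at an adjusted p under 0.05 in limma (0% of all genes tested did) and 0 at an unadjusted p under 0.05 (3.05% of all genes tested, 487 genes). The largest difference was in Oprm1, with 0.439 ± 0.177 FPKM (SD, n = 7) in EtOH and 0.286 ± 0.219 (SD, n = 9) in Ctrl mice, a log2 difference of 0.61 (SE 0.36, 95% interval -0.14 to 1.36). Its two-sided exact permutation p was 0.155. Pdyn and Oprk1 each differed by 0.15, Penk by -0.13, Oprl1 by -0.07, Pnoc by -0.02 and Oprd1 by 0.00. Oprl1 had the narrowest interval, from -0.21 to 0.07. These values moved with the mice and settings used, where mouse numbers follow the order of the columns and serve only as names. Leaving out 1 mouse gave 0.48 to 0.80 for Oprm1 (under an unadjusted p of 0.05 without EtOH mouse 3 or Ctrl mouse 5, with an adjusted p in limma of at least 0.790), 0.02 to 0.19 for Pdyn (0.02 without Ctrl mouse 2), 0.05 to 0.27 for Oprk1 (0.05 without EtOH mouse 6, 0.27 without EtOH mouse 7 or Ctrl mouse 2), -0.21 to -0.02 for Penk (-0.02 without EtOH mouse 7) and -0.10 to -0.03 for Oprl1 (-0.03 without EtOH mouse 7). Oprm1 was at 0.17 with a pseudocount of 1, 0.89 with a pseudocount of 0.01 and 0.68 with array weights, where it passed at an unadjusted p under 0.05 and had an adjusted p in limma of 0.564.

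In EtOH-UA against EtOH mice, 0 of the 7 passed either threshold in limma (0% of all genes tested at the adjusted and 3.27%, or 523 genes, at the unadjusted one). The precursors Pnoc and Pdyn were higher by 0.26 (SE 0.17) and 0.18 (SE 0.18) on the log2 scale. The difference of Penk was -0.17 (SE 0.19), and those of the receptors were -0.55 for Oprm1 (SE 0.39), -0.33 for Oprk1 (SE 0.22), -0.10 for Oprd1 (SE 0.15) and -0.07 for Oprl1 (SE 0.07). Among these the smallest two-sided exact permutation p was 0.140, for Oprk1, with 0.340 ± 0.109 FPKM in EtOH-UA and 0.461 ± 0.168 FPKM in EtOH mice (SD, n = 7 each). Leaving out 1 mouse gave -0.77 to -0.31 for Oprm1 (-0.31 without EtOH-UA mouse 2), -0.46 to -0.22 for Oprk1 (-0.46 without EtOH mouse 7, then under an unadjusted p of 0.05, with an adjusted p in limma of at least 0.574), -0.31 to -0.08 for Penk (-0.31 without EtOH-UA mouse 3, -0.08 without EtOH-UA mouse 2), 0.06 to 0.29 for Pdyn (0.06 without EtOH-UA mouse 2, 0.29 without EtOH-UA mouse 4) and -0.12 to -0.05 for Oprl1 (-0.12 without EtOH-UA mouse 4). Oprm1 was at -0.16 with a pseudocount of 1 and -0.26 with the length slope of the libraries as a covariate.

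In EtOH-UA against Ctrl mice, 0 of the 7 passed at an adjusted p under 0.05 in limma (0% of all genes tested did), and 1 passed at an unadjusted p under 0.05 (3.08% of all genes tested, 492 genes, so the share of members rests on a single gene). That gene was Oprl1, at 14.3 ± 1.61 FPKM (SD, n = 7) against 15.8 ± 1.53 (SD, n = 9), with a two-sided exact permutation p of 0.0758. Its log2 difference was -0.15 (SE 0.07), with a limma p of 0.0408 and a Benjamini-Hochberg adjusted p of 0.999. When 1 mouse was left out its adjusted p in limma was at least 0.954, and its unadjusted p was over 0.05 without EtOH-UA mouse 2, 5, 6 or 7 or Ctrl mouse 1, 2, 6 or 9. Pdyn was at 5.89 ± 1.86 FPKM against 4.61 ± 1.02, a log2 difference of 0.33 (SE 0.17, 95% interval -0.02 to 0.68, exact permutation p = 0.0970). Penk was at 18.7 ± 6.58 FPKM against 22.8 ± 5.79, a difference of -0.30 (SE 0.17, exact permutation p = 0.206). Pnoc had 0.24 (SE 0.16), Oprk1 -0.18 (SE 0.21), Oprd1 -0.09 (SE 0.14) and Oprm1 0.06 (SE 0.36). Single mice moved some of these values. Penk was at -0.45 without EtOH-UA mouse 3 (below an unadjusted p of 0.05). Pdyn was at 0.21 without EtOH-UA mouse 2 or Ctrl mouse 2, at 0.43 without EtOH-UA mouse 4 and at 0.39 without EtOH-UA mouse 3, the last 2 below an unadjusted p of 0.05. Penk without Ctrl mouse 4 and Pdyn without Ctrl mouse 6 were also below it. The adjusted p of both genes in limma was at least 0.954 in all of these fits. With array weights Oprl1 was at -0.16 and Pdyn at 0.31, both below an unadjusted p of 0.05, with an adjusted p in limma of 0.717 for each. Pnoc was at 0.14 without Ctrl mouse 3, and Oprk1 was at -0.07 without EtOH-UA mouse 2 or Ctrl mouse 2.

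A score of dentate granule cell markers was added to the limma fit as a covariate, and the differences moved in both directions. Oprm1 went from 0.61 to 0.69 in EtOH against Ctrl mice and from -0.55 to -0.43 in EtOH-UA against EtOH mice. Neither was below an unadjusted p of 0.05 in limma. With that score as a covariate, the EtOH-UA minus Ctrl differences were 0.14 for Pdyn, -0.16 for Penk and -0.07 for Oprl1 on the log2 scale, none below an unadjusted p of 0.05, and the adjusted p in limma was 0.993 for each. Pnoc moved the other way, from 0.24 to 0.36 with the dentate score and to 0.33 with an interneuron score, both below an unadjusted p of 0.05, with adjusted p in limma of 0.993 and 0.999. In EtOH-UA against EtOH mice these covariates gave 0.33 and 0.29 for Pnoc, again below an unadjusted p of 0.05, with adjusted p in limma of 0.748 and 0.830. Oprl1 in EtOH-UA against Ctrl mice was at -0.10 with the interneuron score and at -0.16 with the length slope, below an unadjusted p of 0.05 in both, with adjusted p in limma of 0.999 and 0.869. The 10 markers were all above 0 in every mouse, and their summed FPKM spanned 110 to 185 (median 145) among the Ctrl, 138 to 165 (median 149) among the EtOH and 126 to 214 (median 175) among the EtOH-UA mice. All 10 had a higher fitted mean in EtOH-UA than in Ctrl mice, as 51.2% of all genes tested did. Of the 10, 0 passed at an adjusted p under 0.05 in limma, and the score had a two-sided exact permutation p of 0.267. The 10 markers come from the same libraries, so their directions are not independent. Their part in the result was not tested beyond this covariate.

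**Figure D3:**
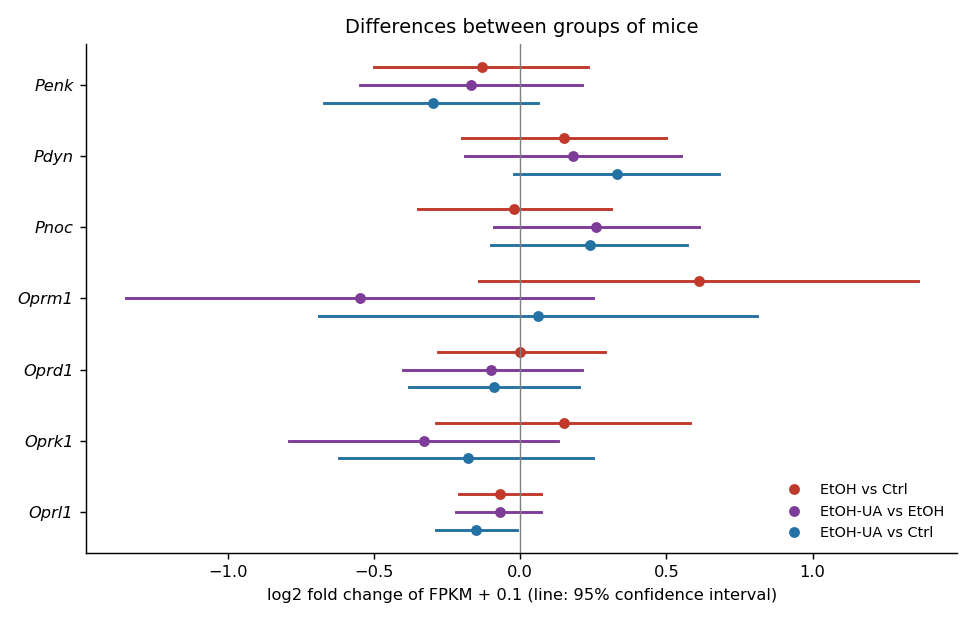
Log2 fold change of FPKM + 0.1 (points) with 95% confidence intervals (lines) for each gene in the 3 comparisons. The intervals include 0 except that of Oprl1 in EtOH-UA against Ctrl mice, and those of Oprm1 are the widest.

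The levels of several of these genes were related from mouse to mouse within the groups. Deviations of log2(FPKM + 0.1) from the group means were correlated over all 23 mice, with two-sided permutation p from 100000 permutations within groups and adjustment over the 21 gene pairs. Both genes of a pair come from the same library, so dissection and depth are shared. Of the 21 pairs, 5 passed at an adjusted p under 0.05.

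Penk and Oprl1 moved together, with Pearson's r = 0.74 (adjusted permutation p = 0.00651) and Spearman's rho = 0.75 (adjusted permutation p = 0.00819). Without the 2 mice farthest from the median of Penk r was 0.66, and within Ctrl, EtOH and EtOH-UA mice it was 0.78, 0.92 and 0.60. Oprm1 and Oprd1, the mu and delta receptor genes, also moved together (r = 0.73, adjusted permutation p = 0.00441, rho = 0.65, adjusted permutation p = 0.0161), and r was 0.69 without the 2 farthest mice and 0.77, 0.42 and 0.84 within the groups. Both of these pairs passed in every fit that left out 1 mouse.

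The other 3 pairs rested on few mice. Pdyn moved against Oprl1 (r = -0.60, adjusted permutation p = 0.0321, rho = -0.45, adjusted permutation p = 0.0960, r = -0.37 without the 2 farthest mice), and r within Ctrl, EtOH and EtOH-UA mice was -0.58, 0.39 and -0.94. Pdyn also moved against Oprk1, the receptor of its peptides (r = -0.57, adjusted permutation p = 0.0359, rho = -0.49, adjusted permutation p = 0.0644), and this relation rested on the 2 farthest mice, without which r was -0.10. Oprk1 and Oprl1 had r = 0.57 (adjusted permutation p = 0.0321, rho = 0.48, adjusted permutation p = 0.0644, 0.36 without those mice). Each of these 3 fell below the threshold without Ctrl mouse 2, which held the lowest Pdyn (2.21 FPKM) and the highest Oprk1 (0.83) and Oprl1 (18.57) of its group, with r then -0.48, -0.35 and 0.45 in the order given. Each was also lost without EtOH-UA mouse 2, 3 or 5. Pdyn with Oprl1 was lost without EtOH-UA mouse 4 as well. The same held for Pdyn with Oprk1 without EtOH mouse 3 and for Oprk1 with Oprl1 without EtOH mouse 7. By Spearman's rho 5 pairs also passed, and among them were Pdyn with Oprm1 (rho = -0.62, adjusted permutation p = 0.0190), Pnoc with Oprl1 (0.56, 0.0340 for the adjusted permutation p) and Oprd1 with Oprk1 (0.55, 0.0340 for the adjusted permutation p).

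Promoter windows of genes in these pairs, from RefSeq (GRCm38.p6), are shown because the genes moved in step or in opposition. Of the 7 genes, 4 matched by symbol, with 2 windows for Pdyn, 3 for Oprl1, 3 for Oprm1 and 1 for Oprd1. Shown for each gene is the window farthest upstream that held a match. The Oprm1 window farthest upstream and the other Oprl1 windows held none. The windows shown were thus picked for a match, whereas the shares over all windows given below were not. Each window runs from 250 bases before to 50 bases after the start, 5′ to 3′ on the strand of the gene. Searched on both strands were the TATA box (TATAAA), the CCAAT box (CCAAT), the GC box (GGGCGG), the cyclic AMP response element (TGACGTCA), the last letters of that element, which overlap it (CGTCA), and an E-box (CACGTG), and matches are in capitals.
Oprm1 promoter: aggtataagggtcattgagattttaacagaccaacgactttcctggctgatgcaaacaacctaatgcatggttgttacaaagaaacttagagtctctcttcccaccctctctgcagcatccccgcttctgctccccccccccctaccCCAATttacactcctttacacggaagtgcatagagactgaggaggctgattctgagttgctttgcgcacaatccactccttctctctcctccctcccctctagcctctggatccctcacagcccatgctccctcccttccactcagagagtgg
Oprd1 promoter: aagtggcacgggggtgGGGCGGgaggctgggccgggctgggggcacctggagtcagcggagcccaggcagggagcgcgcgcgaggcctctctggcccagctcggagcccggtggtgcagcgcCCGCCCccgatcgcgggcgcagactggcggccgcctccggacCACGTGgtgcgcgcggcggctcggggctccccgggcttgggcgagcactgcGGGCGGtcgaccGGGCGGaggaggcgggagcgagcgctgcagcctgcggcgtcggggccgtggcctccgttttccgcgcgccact
Pdyn promoter: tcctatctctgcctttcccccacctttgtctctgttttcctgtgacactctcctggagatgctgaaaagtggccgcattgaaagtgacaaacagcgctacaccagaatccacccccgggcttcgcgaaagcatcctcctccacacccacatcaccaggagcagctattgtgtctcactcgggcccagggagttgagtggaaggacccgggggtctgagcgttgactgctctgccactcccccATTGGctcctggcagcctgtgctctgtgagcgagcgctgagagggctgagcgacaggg
Oprl1 promoter: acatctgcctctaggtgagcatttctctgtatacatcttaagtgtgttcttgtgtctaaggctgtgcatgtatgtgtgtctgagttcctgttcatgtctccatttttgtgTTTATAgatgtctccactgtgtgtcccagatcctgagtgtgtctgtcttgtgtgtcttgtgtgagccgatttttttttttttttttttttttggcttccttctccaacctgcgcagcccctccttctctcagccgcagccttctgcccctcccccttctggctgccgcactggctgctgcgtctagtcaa
The Oprd1 window, at chr4:132144437-132144736 on the minus strand, was 79.3% G and C, above 98.7% of 32851 windows of the same length, and held 4 GC boxes (GGGCGG, present in 35.7% of all windows) and 1 E-box (CACGTG, in 7.15%). The Oprm1 window, at chr10:6788320-6788619 on the plus strand, was 52.0% G and C, and held 1 CCAAT box (in 37.4% of windows). The Pdyn window, at chr2:129699889-129700188 on the minus strand, had 59.0% and 1 CCAAT match. The Oprl1 window, at chr2:181714766-181715065 on the plus strand, had 47.7% and 1 TATAAA match (in 13.6% of windows). The cyclic AMP response element TGACGTCA (in 1.79% of windows) and CGTCA (in 20.8%) were not among the letters of these 4 windows. Oprm1 and Oprd1, which moved together, had no motif of this set in common in the windows shown. A match is a description of letters and not a binding site.

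**Figure D4:**
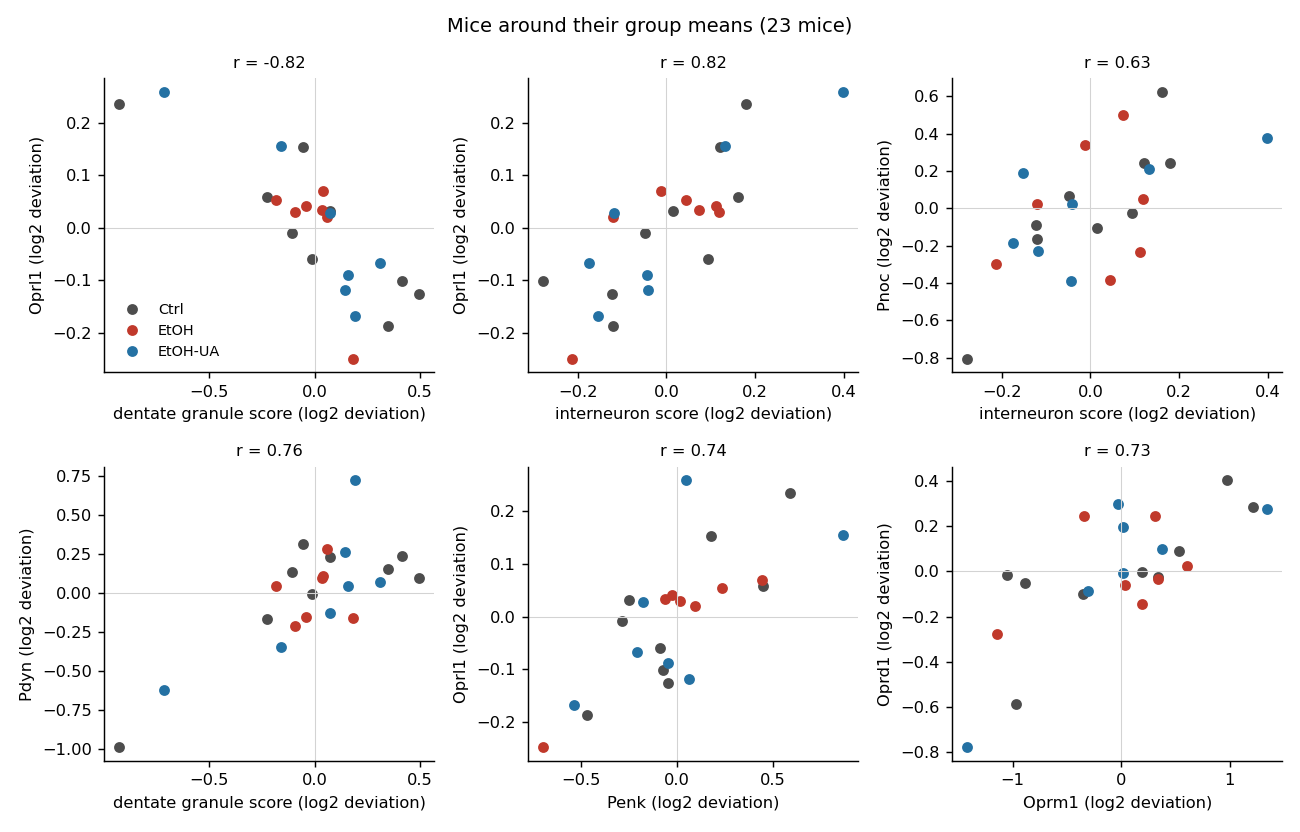
Deviations of log2(FPKM + 0.1) from group means, 1 point a mouse, for Oprl1, Pnoc and Pdyn against marker scores and for 2 gene pairs. Oprl1 falls along the dentate granule score (r = -0.82) and climbs along the interneuron score (r = 0.82), and 2 mice at the low end of the dentate score carry much of the Pdyn relation (r = 0.76).

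Marker genes of hippocampal cell types and of neighboring tissue were set beside the 7 genes in the same way. A score was the mean deviation of the genes of a list, and 7 genes by 12 measures (10 lists, the summed FPKM and the slope of a library's values on transcript length) gave 84 relations over which p was adjusted. By Pearson's r, 11 of the 84 passed. Oprl1 had the strongest relations. It was lower where dentate granule markers were higher (r = -0.82, rho = -0.85, adjusted permutation p = 8.40e-04 for both, from the smallest p that the permutations can give) and higher where interneuron markers were higher (r = 0.82, adjusted permutation p = 0.00210, rho = 0.85, adjusted permutation p = 8.40e-04). Both relations held without the 2 farthest mice (r = -0.72 and 0.73) and kept their sign within each group. Within Ctrl, EtOH and EtOH-UA mice r with the dentate score was -0.87, -0.70 and -0.90. The EtOH value leans on EtOH mouse 7, with Oprl1 at 12.58 FPKM and the highest dentate score of its group (0.18). The other EtOH mice lay between 15.18 and 15.72 FPKM. The scores themselves were opposed (r = -0.82, rho = -0.88, permutation p = 1.00e-05 for both, the smallest possible), so their relations to Oprl1 are not independent.

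Pdyn followed the dentate granule score (r = 0.76, adjusted permutation p = 0.0185, rho = 0.55, adjusted permutation p = 0.0719). This relation rested on the 2 farthest mice, without which r was 0.34, and within Ctrl, EtOH and EtOH-UA mice r was 0.83, 0.09 and 0.78. The farthest was Ctrl mouse 2, with a dentate score of -1.03, and the next was EtOH-UA mouse 4, with a score of -0.58, Pdyn of 3.64 FPKM and Oprl1 of 17.04 FPKM. Pdyn was also opposed to the interneuron score (r = -0.61, adjusted permutation p = 0.0486, rho = -0.55, adjusted permutation p = 0.0719, r = -0.40 without 2 mice). Pnoc followed the interneuron score (r = 0.63, adjusted permutation p = 0.0269, rho = 0.61, adjusted permutation p = 0.0454, r = 0.59 without 2 mice). Penk was related by rank to the dentate score (rho = -0.63, adjusted permutation p = 0.0454, r = -0.54, adjusted permutation p = 0.0683) and to the interneuron score (rho = 0.67, adjusted permutation p = 0.0280, r = 0.56, adjusted permutation p = 0.0672).

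Oprm1 and Oprd1 shared another set of relations. Both followed the markers of cortex and claustrum, tissue that borders the hippocampus (r = 0.62 and 0.59, adjusted permutation p = 0.0369 for both, rho = 0.53 and 0.50, adjusted permutation p = 0.0943 and 0.0998, r = 0.46 and 0.45 without 2 mice). The 9 markers were above 0 in every mouse and summed to 77.6 to 112 FPKM among the Ctrl, 80.5 to 102 among the EtOH and 82.3 to 100 among the EtOH-UA mice, and their part in the result was not tested. Oprm1 was also lower in libraries of higher summed FPKM (r = -0.60, adjusted permutation p = 0.0369, rho = -0.45, adjusted permutation p = 0.121) and followed the length slope (r = 0.58, adjusted permutation p = 0.0486, rho = 0.38, adjusted permutation p = 0.225, r = 0.39 without 2 mice). Oprd1 had r = -0.63 with summed FPKM (adjusted permutation p = 0.0539, rho = -0.60, adjusted permutation p = 0.0528) and r = 0.70 with activity-dependent genes (adjusted permutation p = 0.0369, rho = 0.42, adjusted permutation p = 0.188), and the latter rested on 2 mice, without which r was 0.23. With the length slope Oprd1 had r = 0.58 (adjusted permutation p = 0.0683, rho = 0.51, adjusted permutation p = 0.0943), and r was 0.19 without 2 mice. EtOH-UA mouse 2 had the highest summed FPKM (404609) and the lowest slope (-0.262) and was the lowest of all 23 in Oprm1 (0.03 FPKM), Oprd1 (1.7) and Oprk1 (0.17) and the highest in Pdyn (9.39). Pnoc went against the length slope (r = -0.53, adjusted permutation p = 0.0447, rho = -0.59, adjusted permutation p = 0.0454, r = -0.53 without 2 mice).

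Removing a score changed which gene pairs stayed correlated. With the dentate score removed, 2 of the 21 pairs passed, Oprm1 with Oprd1 (r = 0.72, adjusted permutation p = 0.00840) and Penk with Oprl1 (r = 0.61, adjusted permutation p = 0.0407), and Pdyn with Oprl1 had r = 0.07. With the interneuron score removed, 1 pair passed, Oprm1 with Oprd1 (r = 0.69, adjusted permutation p = 0.0300), and Penk with Oprl1 had r = 0.58 (adjusted permutation p = 0.0608). With the length slope removed, 13 pairs passed, 10 positive and 3 negative, and the 3 negative ones were those of Pdyn with Penk (-0.49), Oprk1 (-0.53) and Oprl1 (-0.70).

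**Figure D5:**
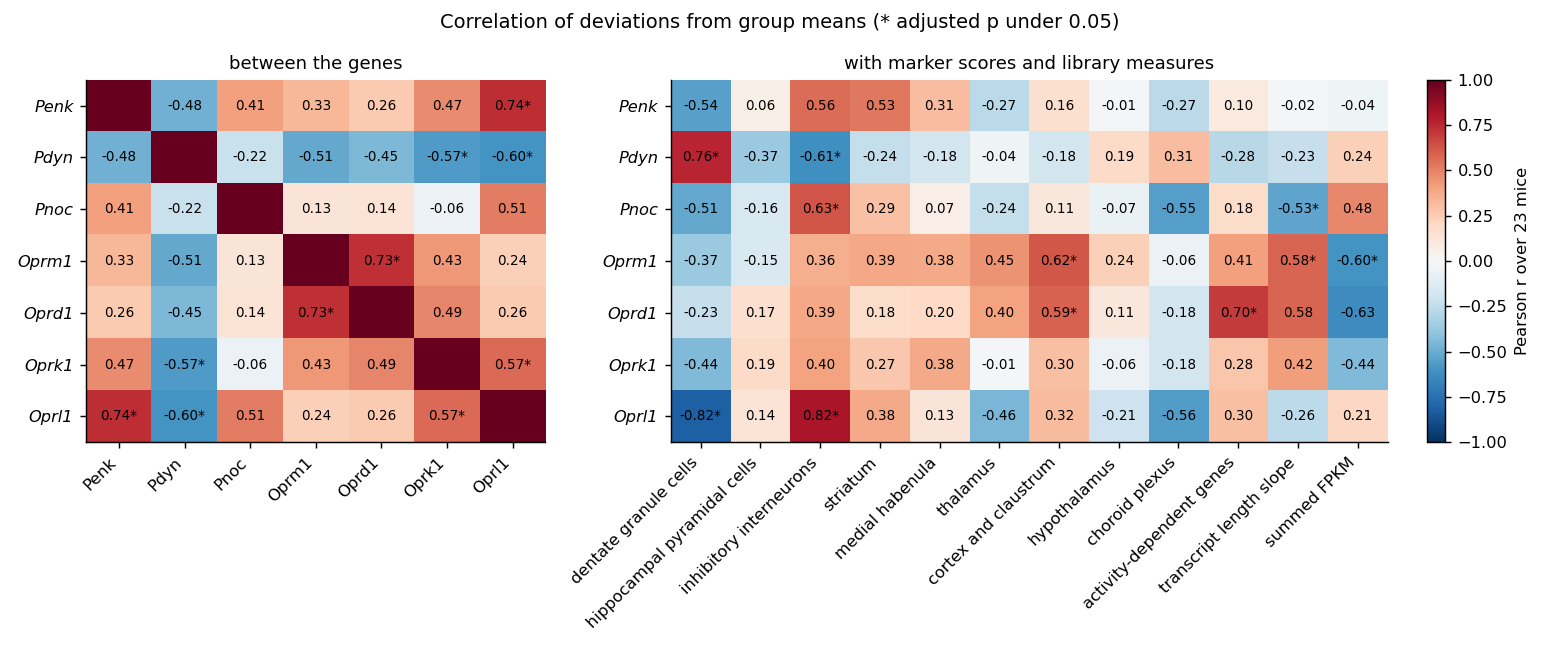
Pearson's r of deviations from group means over 23 mice, between the 7 genes (left) and of each gene with 10 marker scores, the length slope and the summed FPKM (right), with an asterisk where the adjusted permutation p was under 0.05. Oprl1 has the darkest cells, at -0.82 and 0.82, and Pdyn is negative with every other gene of the family.

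The genes whose deviations were most like those of each family member were taken among 12903 genes whose mean reached 1 FPKM, as a description over 23 mice. For Oprl1 these were Ppp2r2b (r = 0.92), Rasal1 (0.90) and Nrsn2 (0.88), and Fam13a was the most opposed (-0.92). For Oprd1 they were Dync1h1 (r = 0.91), which encodes the heavy chain of cytoplasmic dynein, D130043K22Rik (0.89) and Adamts2 (0.88), with Nudt14 at -0.91. Those of Pdyn were Cdc42ep4 (0.88), Scnn1a (0.84) and Col15a1 (0.84), with Myo16 at -0.86. Those of Penk were Rasgef1c (0.85), Dlk1 (0.84) and Nrxn2 (0.83), a presynaptic neurexin, with Pih1d2 at -0.78. Pnoc was most like Ddx59, Sst and Timm22 (0.81 each), of which Sst encodes the interneuron peptide somatostatin, with Neu3 at -0.80. No such genes were taken for Oprm1 and Oprk1, which were below 1 FPKM. The part of the length slope in these likenesses, with which Oprd1 had r = 0.58, was not tested.

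The rest of the opioid pathway was described from 5 lists of 60 genes in all, every one of which was tested. In limma 0 of the 60 passed at an adjusted p under 0.05 in any comparison, and 2, 1 and 1 passed at an unadjusted p under 0.05 in the order of the comparisons above, where 3.05%, 3.27% and 3.08% of all genes tested did. These counts are close to what the background shares would give, and the values below are given as a description. Pomc, the precursor of beta-endorphin, was at 0.421 ± 0.209 FPKM (SD, n = 7) in EtOH and 0.719 ± 0.215 (SD, n = 9) in Ctrl mice. This is a log2 difference of -0.71 (SE 0.26, exact permutation p = 0.0166, adjusted p in limma 0.999). In EtOH-UA mice Pomc was at 0.637 ± 0.247 FPKM (SD, n = 7). Its level was low, from 0.110 to 1.04 FPKM over the mice, and the fragments behind it were not estimated. Enpep, an aminopeptidase that trims peptides, was at 0.710 ± 0.147 FPKM in EtOH against 0.859 ± 0.0718 in Ctrl mice (log2 difference -0.26, SE 0.10, exact permutation p = 0.0201). Arrb2, an arrestin that binds active opioid receptors, was at 25.6 ± 2.51 FPKM in EtOH-UA against 22.8 ± 2.47 in EtOH mice (0.17, SE 0.07, exact permutation p = 0.0589). Grk3, a receptor kinase, was at 26.8 ± 4.29 FPKM in EtOH-UA against 30.9 ± 3.46 in Ctrl mice (-0.21, SE 0.09, exact permutation p = 0.0510).

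Of the 6 other ligand and binding genes 2, 5 and 3 were higher in EtOH against Ctrl, EtOH-UA against EtOH and EtOH-UA against Ctrl mice, with median log2 differences of -0.06, 0.07 and 0.00. Besides Pomc, Rtp4, an export chaperone of opioid receptors, had -0.19 in EtOH against Ctrl mice, and Ackr3 and Wls had 0.10 and 0.06 in EtOH-UA against Ctrl mice. Of the 12 processing genes 4, 7 and 4 were higher in the 3 comparisons in the order above, with medians of -0.02, 0.02 and -0.03. Pcsk1, a convertase that cuts the precursors, had 0.23 in EtOH against Ctrl and -0.25 in EtOH-UA against EtOH mice, Cpd 0.12 and -0.16, and Scg2 and Ctsl 0.10 and 0.12 in EtOH-UA against Ctrl mice. Cpe, the carboxypeptidase that finishes the peptides, was the most abundant gene of the lists, at 1249 FPKM.

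Of the 11 peptide breakdown genes 4, 5 and 7 were higher, with medians of -0.01, -0.02 and 0.02, and Lnpep had 0.77 (SE 0.49) in EtOH against Ctrl mice, Npepps 0.06 and 0.04 in the EtOH-UA comparisons and Ece1 -0.12 in EtOH-UA against Ctrl mice. Of the 17 G protein and effector genes 9, 7 and 7 were higher (medians 0.01, -0.01 and -0.02). Kcnj9, a subunit of the potassium channel that the receptors open, had -0.10 and -0.11 against Ctrl mice, Gnai3 had 0.07, the calcium channel genes Cacna1a and Cacna1b had -0.19 and -0.15 in EtOH-UA against EtOH mice, and Gnaz had -0.09 in EtOH-UA against Ctrl mice. Of the 14 receptor regulation genes 3, 7 and 5 were higher (medians -0.04, 0.01 and -0.03), with Grk5 at 0.12 in EtOH and Rgs4 at -0.17 in EtOH-UA against Ctrl mice. Over all genes tested the medians were -0.003, 0.003 and 0.002, and 48.6%, 51.2% and 51.2% of the genes were higher.

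Markers of other tissue were present at different levels and differed between libraries. In 36 tests of the 12 measures in 3 comparisons, 0 passed after adjustment. The smallest p were those of the hypothalamus list, higher in EtOH and EtOH-UA than in Ctrl mice (two-sided exact permutation p = 0.00490 and 0.00271, adjusted p = 0.0882 for both), whose 8 genes summed to 0.840 to 2.88 FPKM over all mice, with Hdc the highest (0.558 FPKM) and 2 of 8 above 0 in every mouse. Choroid plexus genes summed to 8.21 to 2980 FPKM among the Ctrl, 71.2 to 5771 among the EtOH and 16.5 to 7828 among the EtOH-UA mice, with medians of 61.4, 1283 and 1864 and with Ttr the most abundant. All 8 had a higher fitted mean in EtOH and in EtOH-UA than in Ctrl mice, as 48.6% and 51.2% of all genes tested did. Their median log2 differences were 1.73 and 1.22, and 0 passed at an adjusted p under 0.05 in limma. The two-sided exact permutation p of the score of these genes was 0.0833 and 0.273. Their part in the differences of the 7 genes was not tested, and the relations of the 7 genes to this score did not pass (r from -0.56 for Oprl1 to 0.31 for Pdyn). The striatum is a tissue rich in Penk and Pdyn. Of its 10 markers, 6 had a mean of at least 1 FPKM. The highest was Ppp1r1b at 26.8 FPKM and the lowest marker was at 0.277, with Drd2 at 0.653. The striatum score had r = 0.53 with Penk (adjusted permutation p = 0.0683, rho = 0.43, adjusted permutation p = 0.185), and r was 0.23 without 2 mice. With Pdyn it had r = -0.24 (adjusted permutation p = 0.494). Medial habenula (Tac2, 3.55 FPKM), thalamus (Ntng1, 10.8 FPKM) and cortex (Lamp5, 17.9 FPKM) lists and those of pyramidal cells (Neurod6, 104 FPKM), interneurons (Sst, 186 FPKM), granule cells (Calb1, 45.3 FPKM) and activity-dependent genes (Vgf, 49.9 FPKM) had no gene at 0 in every mouse. The gene named is the most abundant of its list. Of the 8 medial habenula markers, 1 had a mean of at least 1 FPKM and 5 were above 0 in every mouse. For thalamus 7 of 8 and for cortex and claustrum 9 of 9 had a mean of at least 1 FPKM. Whether such tissue was in the dissection was not tested.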

How the data were processed

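RNA of the hippocampus of 23 mice was sequenced on an MGI platform; the methods name the BGISEQ-500 and poly(A)+ RNA, whereas the labels name total RNA and MGISEQ. The authors deposited 1 table of FPKM with 2 decimals. The submitters' processing notes name HISAT2 2.1.0, Bowtie2 2.2.5, RSEM 1.2.8 and StringTie, with the mm10 genome. Counts were not used here, so a count model was not fitted, and depth is known only as the fragments per kilobase that low FPKM steps imply. Columns were matched to groups by name. Columns of no sample numbered 0.

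The 15985 of 19733 genes whose mean reached 0.1 FPKM entered limma 3.58.1 (R 4.3.3) on log2(FPKM + 0.1), in 1 fit of the 3 groups with a mean-variance trend, and p-values were adjusted by Benjamini-Hochberg over all genes. For single values, the difference in mean FPKM was set against all 3432 or 11440 splits of the mice (exact permutation, two-sided). Correlations used numpy 2.4.6 and scipy 1.17.1 with 100000 permutations within groups. The limma step was tested on simulated data. Figures were drawn with matplotlib 3.10.9. The methods state that several mice shared a cage, but nothing beyond the mouse numbers says which mice shared a cage or batch. The p-values treat each mouse as independent, and an effect of cage or batch could not be tested.

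The 7 genes, the 5 pathway lists and the 10 marker lists were chosen with earlier results of these data known. Named besides the 7 genes were the 2 genes of each pathway list with the smallest p in each comparison, the 3 most alike and the 1 most opposed gene of each member of at least 1 FPKM, and the most abundant gene of each marker list. Cpe and Drd2 were named after their values were seen. A gene that this rule names is not reported here. Alternatives were other pseudocounts and low-value filters, upper-quartile and quantile normalization, robust and weighted fits, fits of only the groups compared, leaving out each mouse and, chosen after seeing the data, the length slope and the dentate and interneuron scores as covariates. Coding sequences are from GENCODE M21 and promoters from RefSeq, both on GRCm38.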

Additional observations from a re-analysis of the deposited data

Results flagged for a closer look

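Of the 21 sets of values (7 genes in 3 groups), 5 held a mouse whose gap to its nearest neighbor, as a share of the range of the group, exceeded Dixon's 95% critical value. About 1.05 such sets are expected by chance at 1 in 20.

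The highest Penk of the EtOH-UA group was 32.8 FPKM, with the next mouse at 18.73 (gap 0.688). The same animal, EtOH-UA mouse 3, had the highest Oprm1 of that group at 0.780 FPKM, with the next at 0.35 (gap 0.573). The lowest Pdyn of the Ctrl group was 2.21 FPKM against 3.98 in the next mouse (gap 0.524), and the highest Oprk1 of the Ctrl group was 0.830 FPKM against 0.46 (gap 0.607). Both came from Ctrl mouse 2, whose dentate granule score was -1.03, the lowest of the 23 mice. The lowest Oprl1 of the EtOH group was 12.6 FPKM against 15.18 in the next mouse (gap 0.828), in EtOH mouse 7, whose Ttr was at 5628 FPKM, the highest of that group.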

How the results depend on the processing

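No paired analysis was possible because no source used here names matched mice. The methods describe random assignment of mice to groups, so a replicate number shared between groups is not known to mark a pair. The columns of the table carry mouse numbers and not the replicate numbers of the labels. A fit with the replicate number as a block could therefore not be run. None of the 7 genes passed at an adjusted p under 0.05 in limma in any of the 3 comparisons under any alternative that was run, which gave 729 fold changes and 609 correlations besides the reported ones. Over all genes the count past the adjusted threshold was 0 in each comparison, 1 with array quality weights in EtOH against Ctrl mice (Cd24a), and 0 to 1 in each comparison when a mouse was left out: 1 without Ctrl mouse 9 in EtOH against Ctrl mice (LOC115488002), and 1 without EtOH-UA mouse 6 or 7 in both EtOH-UA comparisons (LOC101055676).

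The 5 pairs of genes became 13 with the length slope removed, 2 with the dentate score removed and 1 with the interneuron score removed. They ranged from 2 to 9 when a mouse was left out, with 9 without Ctrl mouse 1, 8 without Ctrl mouse 5, 3 without EtOH-UA mouse 2, and 2 without Ctrl mouse 2 or EtOH-UA mouse 3 or 5. The cause was not tested.

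Some values changed sign. In EtOH against Ctrl mice, Pnoc was 0.04, 0.03 and 0.04 with the length slope, dentate and interneuron covariates, and Oprd1 was -0.02 after quantile normalization and -0.05 with the length slope. Oprd1 was 0.02 in EtOH-UA against EtOH mice with the length slope and 0.01 in EtOH-UA against Ctrl mice with array weights. Leaving out a mouse gave -0.12 to 0.06 for Pnoc and -0.07 to 0.05 for Oprd1 in EtOH against Ctrl mice, -0.15 to 0.03 for Oprd1 in EtOH-UA against EtOH mice, and -0.16 to 0.30 for Oprm1 and -0.17 to 0.04 for Oprd1 in EtOH-UA against Ctrl mice. Among correlations, the dentate score removed gave 0.32 for Pdyn with Pnoc, 0.07 for Pdyn with Oprl1 (-0.60 as reported), -0.08 for Pnoc with Oprm1 and -0.13 for Oprm1 with Oprl1. The interneuron score removed gave 0.28 for Pdyn with Pnoc, -0.13 for Pnoc with Oprm1, -0.15 for Pnoc with Oprd1, -0.001 for Pnoc with Oprl1 (0.51 as reported), -0.09 for Oprm1 with Oprl1 and -0.10 for Oprd1 with Oprl1. Pnoc with Oprk1 was 0.08 after quantile normalization and 0.22 with the length slope removed. Leaving out a mouse gave -0.05 to 0.21 for Pnoc with Oprm1, -0.18 to 0.30 for Pnoc with Oprd1 and -0.17 to 0.10 for Pnoc with Oprk1. Depth limits Oprm1 and Oprk1 most, where few fragments lie behind a value.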
